A study of Mus musculus with 2 samples.

Results

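Fc receptor genes encode the proteins through which cells bind the constant part of antibodies. The 9 genes described here were a fixed list (Fcgr1, Fcgr4, Fcgr3, Fcgr2b, Fcer1g, Fcer1a, Fcer2a, Fcgrt and Fcmr), and all 9 were present among the 33696 genes of both count matrices. Lung cells of adult mice on the C57BL6/J background, aged 5 to 8 weeks, were dissociated, sorted as live cells and profiled with a droplet 3′ RNA kit together with 18 antibody tags. One library carried the label GFI1 KO, a germline loss of the transcriptional repressor GFI1, and the other carried the label GFI1 WT. With 1 library per genotype, label and library cannot be told apart, no test was possible, and each interval below covers counting error only.

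In the classical scheme, FcγRI (Fcgr1), FcγRIII (Fcgr3) and FcγRIV (Fcgr4) bind IgG and signal for activation through the common γ chain made from Fcer1g, which carries an activating motif. FcγRIIb (Fcgr2b) binds the same ligands and carries an inhibitory motif, so that cells with both kinds weigh opposite signals. The high-affinity IgE receptor of basophils and mast cells needs its own α chain (Fcer1a), Fcer2a encodes the low-affinity IgE receptor CD23 of B cells, Fcmr encodes a receptor for IgM, and Fcgrt encodes the heavy chain of the neonatal receptor FcRn, which pairs with β2-microglobulin to rescue IgG from degradation.

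After filtering, 10495 cells remained under the KO label and 19342 under the WT label, with medians of 11076 and 6217 UMIs, which are distinct captured transcripts. The libraries shared 74 cell barcodes. Levels are counts per 1000000 summed UMIs (CPM) of a cell class in a library, and since each transcript is counted once near its 3′ end they are not scaled by gene length. Gfi1 itself was at 3.60 CPM in the KO library (340 UMIs) and at 3.47 CPM in the WT library (470 UMIs). Which bases the allele removes is not given in the sources used here, so 3′ counts of Gfi1 do not check the label. A gene was called in a class when its KO over WT ratio was at least 2 or at most 0.5 and the exact 95% interval excluded 1, given at least 30 UMIs in that class and at least 50 cells in each library.

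The class sizes differed strongly between the labels. Classical monocyte-like cells numbered 3494 under KO and 102 under WT, and an unresolved monocyte cluster, tied between classical, nonclassical and MHC-II-high marker lists, held 1285 and 312 cells. Nonclassical monocyte-like cells numbered 394 and 362, alveolar macrophage-like cells 2319 and 3697, B-like cells 931 and 2870, NK-like cells 218 and 2037 and T-like cells 766 and 2405. Basophil-like cells (18 and 15) and mature neutrophil-like cells (8 and 1430) fell under the minimum in at least 1 library. In the neutrophil-like cluster, the KO cells had less Csf3r (350 against 2543 CPM), Cxcr2, G0s2, Il1r2 and Mxd1. They had more Retnlg, S100a8 and S100a9, and median depths were 13152 and 2810.5 UMIs. The values of these 8 KO cells are therefore not read as those of mature neutrophils. A further cluster met the marker rule for interstitial macrophages with C1qa, C1qb and C1qc (27 and 453 cells). Its WT cells, however, held the alveolar macrophage gene Chil3 at 39970 CPM against 1571 CPM in its KO cells, so it is called the C1q-high macrophage cluster and is not compared between labels. Another 13 clusters, with 673 KO and 2446 WT cells, were left unnamed and are not compared.

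Of 63 pairs of an Fc receptor gene with a class, 39 had enough UMIs to compare, of which 9 were called higher and 2 lower under the KO label. Over all genes in the same 7 classes, 2.78% of pairs were called higher and 2.93% lower. The calls were not spread evenly: 5 of the 9 higher calls were in T-like cells, where the levels were low, and 28 pairs were not called.

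**Figure D1:**
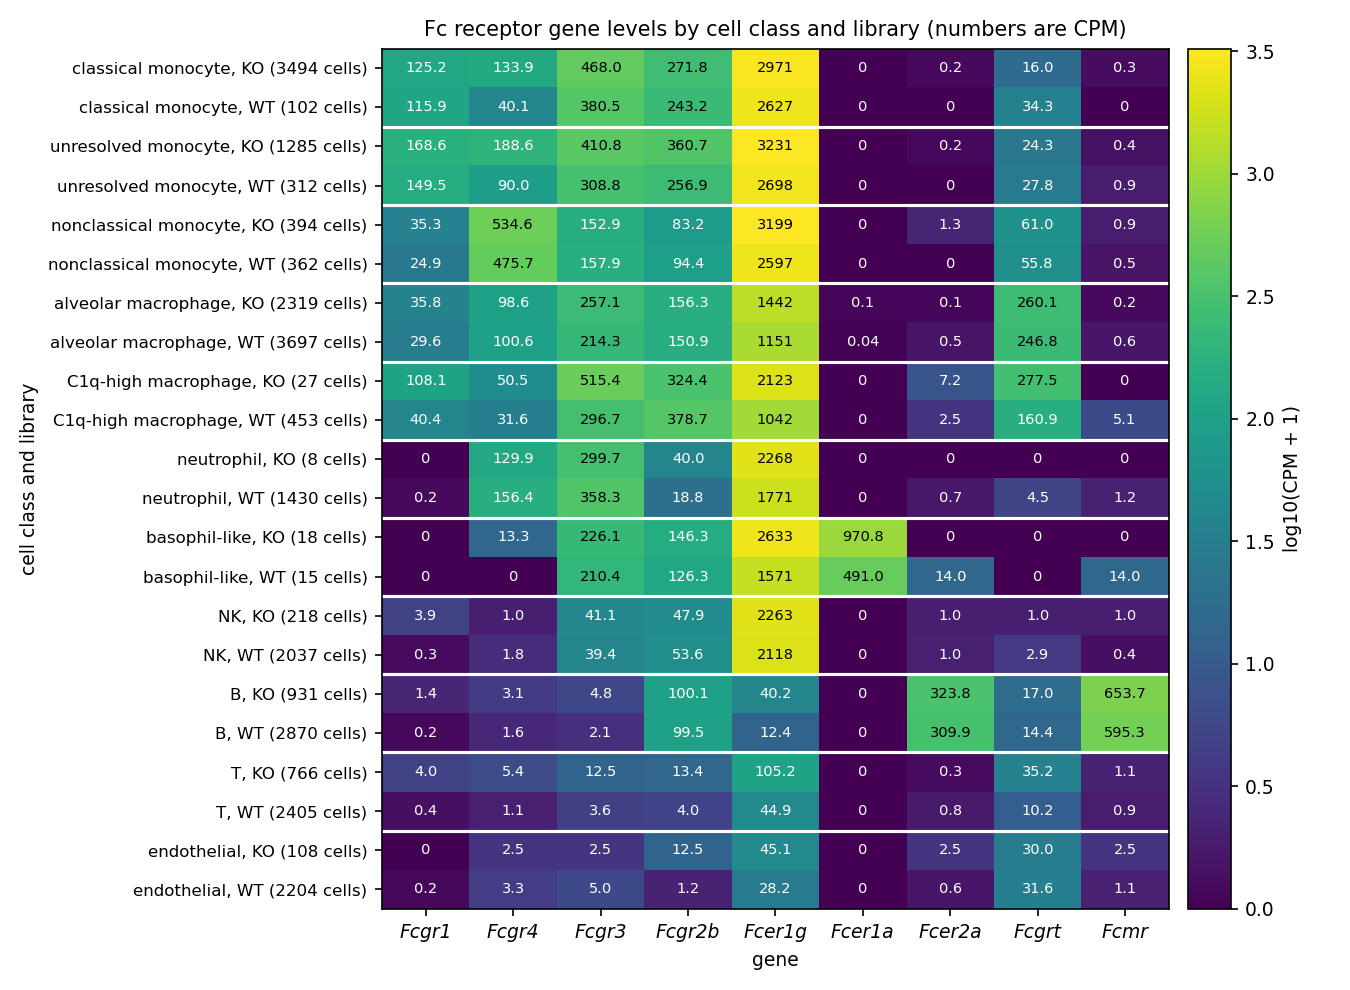
CPM of the 9 genes (columns) in 11 cell classes of each library (rows, with cell numbers). Colour gives log10(CPM + 1). Fcer1g was high in the monocyte, macrophage, neutrophil-like, basophil-like and NK-like rows, Fcer1a was seen in basophil-like cells, and Fcer2a and Fcmr were high in B-like cells.

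The promoters of 3 members are shown because the results turn on them: Fcgr4, the Fcγ receptor gene that differed between labels in monocytes, Fcgr1, which did not pass 2-fold in the same cells, and Fcer1a, which marked basophil-like cells. All are RefSeq windows from 250 bases before to 50 bases after the gene start in GRCm38.p6, printed 5′ to 3′ on the gene's strand. This build differs from that of the count files, and windows were found for all 9 members. Capitals mark AATC or its reverse complement GATT in Fcgr4 (the core that GFI1 recognises), TTCNNNGAA in Fcgr1 (a STAT-type palindrome) and GATA or its reverse complement TATC in Fcer1a.
Fcgr4, chr1:171018676-171018975, plus strand: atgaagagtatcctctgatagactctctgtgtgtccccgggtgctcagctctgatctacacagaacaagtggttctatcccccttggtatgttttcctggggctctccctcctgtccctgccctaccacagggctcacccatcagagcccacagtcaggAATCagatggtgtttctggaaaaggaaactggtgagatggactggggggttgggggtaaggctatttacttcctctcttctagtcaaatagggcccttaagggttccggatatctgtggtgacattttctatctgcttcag
Fcgr1, chr3:96293920-96294219, minus strand: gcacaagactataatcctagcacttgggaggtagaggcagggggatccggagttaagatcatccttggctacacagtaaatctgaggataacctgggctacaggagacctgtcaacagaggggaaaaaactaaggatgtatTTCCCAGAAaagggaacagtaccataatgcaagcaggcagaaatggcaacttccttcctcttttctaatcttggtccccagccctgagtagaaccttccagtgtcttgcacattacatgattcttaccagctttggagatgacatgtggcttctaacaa
Fcer1a, chr1:173227180-173227479, minus strand: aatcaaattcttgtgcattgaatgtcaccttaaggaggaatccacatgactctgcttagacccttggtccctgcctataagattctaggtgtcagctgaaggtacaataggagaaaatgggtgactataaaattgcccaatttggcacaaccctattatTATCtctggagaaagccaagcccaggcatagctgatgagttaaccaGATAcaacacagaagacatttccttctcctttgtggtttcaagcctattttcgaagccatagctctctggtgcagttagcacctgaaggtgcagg

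On both strands, AATC was found in 73.7% of 27025 promoter windows of this length, GATA in 58.3%, TTCNNNGAA in 8.47% and GAGGAA, a core bound by the myeloid factor PU.1, in 28.3%. None of these motifs contains another, although single matches can share bases. AATC had 1 match in the Fcgr4 window, 4 in the Fcgr1 window and 3 in the Fcer1a window. Among the members, TTCNNNGAA matched in the Fcgr1 window alone, and GAGGAA had 1 match each in the windows of Fcgr1, Fcgr4, Fcer1a, Fcmr and both windows of Fcgr3. A match is a string of letters, and binding was not measured.

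Among the activating IgG receptors, Fcgr4 differed most between labels in monocytes. In classical monocyte-like cells it was at 134 CPM under KO (4713 UMIs) and 40.1 CPM under WT (28 UMIs), a ratio of 3.34 (95% interval 2.31 to 5.04). In the unresolved monocyte cluster it was at 189 and 90.0 CPM, a ratio of 2.10 (1.81 to 2.44). Both were called higher, against 6.71% of all genes called in either direction in classical monocyte-like cells and 5.63% in the unresolved cluster. The call in the unresolved cluster was lost when cells were thinned to 1500 UMIs (log2 ratio 0.76) and kept in 8 of the 9 alternatives that held the class. That in classical monocyte-like cells was kept in 10 of 15 alternatives. It was lost at resolution 0.5, with each library clustered on its own and without doublets marked by Scrublet. It was also lost with limits of 1000 UMIs and 10% mitochondrial UMIs and with the classical and unresolved clusters joined. None of these alternatives compared an unresolved monocyte class of its own, so the classical class may not hold the same cells there. The call was kept with classes from single cells, which also compared no unresolved class.

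Nonclassical monocytes are the patrolling monocytes for which FcγRIV is a known marker, and they held the highest level of Fcgr4 in both libraries. Fcgr4 was there at 535 CPM under KO and 476 under WT, a ratio of 1.12 (1.03 to 1.23) that was not called. In alveolar macrophage-like cells the values were 98.6 and 100.6 CPM, a ratio of 0.980 (0.934 to 1.03). The order nonclassical, unresolved, classical therefore held in both libraries, and the monocyte classes with less Fcgr4 had the larger ratios. Mature neutrophil-like cells had Fcgr4 at 156 CPM under WT (665 UMIs), above the WT classical and unresolved monocyte classes. The 8 KO cells of their cluster, in which neutrophil markers differed from WT, had 13 UMIs, or 129.9 CPM (69.2 to 222).

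With cells thinned to 1500 UMIs each, which removes the effect of depth on detection, an Fcgr4 UMI was seen in 16.9% (15.7 to 18.2) of 3489 classical monocyte-like cells under KO and in 4.90% (1.61 to 11.1) of 102 under WT. The shares before thinning were 60.5% and 18.6%. In endothelial-like cells, which should lack the gene, 0 of 97 thinned KO cells had an Fcgr4 UMI, which allows up to 3.09% (3 counts of the total), and 0.235% of 2124 WT cells had an Fcgr4 UMI. Median depths were 9718 and 6764.5 UMIs in classical monocyte-like cells and 3395 and 4608.5 in endothelial-like cells.

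The composition of the classical monocyte-like class moved with the label. All 8 markers of immature, granule-gene-expressing myeloid cells were higher under KO, with a summed level of 272 against 37.2 CPM, and Elane, Ltf, Camp, Ngp and Ms4a3 were at 0 in the WT cells. The mature neutrophil list summed to 7270 against 1227 CPM, with 5 of 8 markers higher under KO. Much of the KO sum was S100a8, at 3709 against 132 CPM. The class's own 7 markers summed to 9304 against 11820 CPM, with 2 of 7 higher under KO, and the alveolar macrophage list summed to 4491 against 1904 CPM, nearly all of it Chil3. The part of these markers in the Fcgr4 result was not tested. Among cells without any granule UMI, 850 under KO and 81 under WT, Fcgr4 was at 136 and 46.1 CPM, a ratio of 2.94 (1.98 to 4.56). In the 636 KO cells with at least 5 granule UMIs it was at 123 CPM. When the classical and unresolved clusters were joined, the ratio was 1.89 (1.66 to 2.16) and the 2-fold call was lost.

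**Figure D2:**
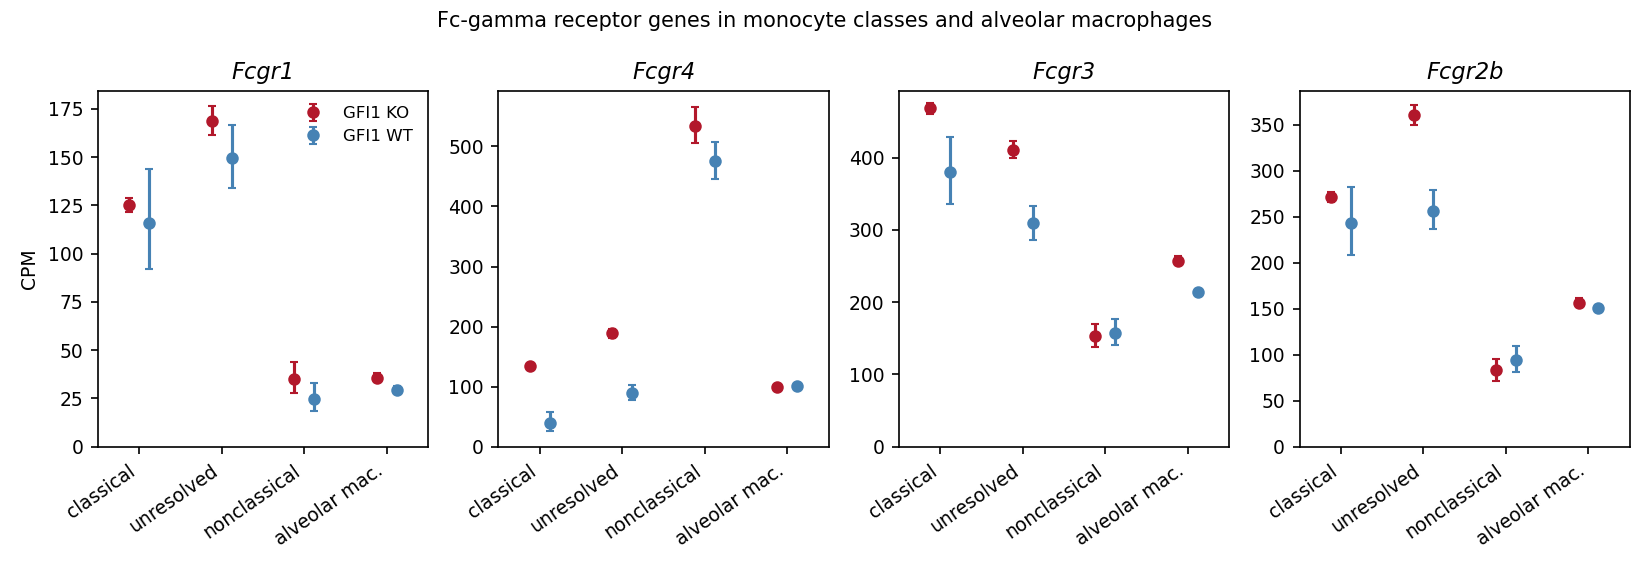
CPM of the 4 Fcγ receptor genes in the 3 monocyte classes and alveolar macrophage-like cells, KO in red and WT in blue, with exact 95% Poisson intervals. Fcgr4 peaks in nonclassical monocyte-like cells, where the other 3 genes are lower than in the other monocyte classes. The labels separate most for Fcgr4 in the classical and unresolved classes.

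Fcgr1, the high-affinity IgG receptor gene, had another order among the monocyte classes. It was highest in the unresolved cluster, at 169 CPM under KO and 149.5 under WT, followed by classical monocyte-like cells at 125 and 116 CPM. The classical and unresolved intervals overlapped under WT and did not under KO. Nonclassical monocyte-like cells had 35.3 and 24.9 CPM and alveolar macrophage-like cells 35.8 and 29.6 CPM. None of these 4 ratios was called: they ran from 1.08 (0.867 to 1.36) in classical to 1.42 (0.983 to 2.07) in nonclassical monocyte-like cells. The log2 ratio in classical monocyte-like cells went from 0.11 to -0.66 at resolution 1.2, without a call, and that in nonclassical monocyte-like cells reached 1.10, a higher call, with classes from single cells. In B-like, NK-like and T-like cells Fcgr1 had between 2 and 14 UMIs in any library.

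Fcgr3, the low-affinity activating receptor gene, was at 468 and 381 CPM in classical monocyte-like cells, 411 and 309 in the unresolved cluster, 153 and 158 in nonclassical monocyte-like cells and 257 and 214 in alveolar macrophage-like cells. The ratios ran from 0.969 (0.829 to 1.13) to 1.33 (1.23 to 1.44) in these 4 classes, with none called. Mature neutrophil-like cells had 358 CPM under WT (1524 UMIs), and the 8 KO cells of their cluster had 30 UMIs, or 299.7 CPM (202 to 428). NK-like cells, whose CD16 is the product of Fcgr3, held 41.1 and 39.4 CPM, a ratio of 1.04 (0.737 to 1.44) that became a higher call, with a log2 ratio of 1.47, when each library was clustered on its own.

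The inhibitory receptor gene Fcgr2b showed no 2-fold difference in any monocyte, macrophage, B-like or NK-like class. It was at 272 and 243 CPM in classical monocyte-like cells, 361 and 257 in the unresolved cluster, 83.2 and 94.4 in nonclassical monocyte-like cells and 156 and 151 in alveolar macrophage-like cells. The WT cells of the C1q-high cluster had the highest WT level, 379 CPM, while WT neutrophil-like cells had 18.8 CPM. B-like cells, in which FcγRIIb is the IgG receptor, held 100.1 and 99.5 CPM, a ratio of 1.01 (0.880 to 1.15). NK-like cells had 47.9 and 53.6 CPM, a ratio of 0.894 (0.651 to 1.203).

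The balance of inhibitory to activating transcripts was compared as the UMIs of Fcgr2b per UMI of Fcgr3. It was 0.581 under KO and 0.639 under WT in classical monocyte-like cells, a ratio between labels of 0.909 (0.746 to 1.11). In the unresolved cluster it was 0.878 and 0.832, a ratio of 1.06 (0.936 to 1.19). Alveolar macrophage-like cells had 0.608 and 0.704, a ratio of 0.864 (0.821 to 0.908), so that the interval excluded 1 while the shift stayed well under 2-fold. In B-like cells, on 14 and 21 UMIs of Fcgr3, the ratio between labels was 0.435 (0.208 to 0.938). The UMIs of Fcgr4 per UMI of Fcgr3 were 0.286 and 0.105 in classical monocyte-like cells, a ratio of 2.72 (1.84 to 4.18), and 0.384 and 0.470 in alveolar macrophage-like cells, a ratio of 0.817 (0.771 to 0.866).

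The γ chain gene Fcer1g was above 1000 CPM in the monocyte, macrophage, neutrophil-like and basophil-like classes and in NK-like cells. In classical, unresolved and nonclassical monocyte-like cells it was at 2971, 3231 and 3199 CPM under KO and at 2627, 2698 and 2597 CPM under WT. The 3 WT intervals overlapped from one class to the next. Alveolar macrophage-like cells had 1442 and 1151 CPM, NK-like cells 2263 and 2118 CPM and mature neutrophil-like cells 2268 (8 cells) and 1771 CPM. The 5 ratios in the monocyte, alveolar macrophage-like and NK-like classes ran from 1.07 (1.02 to 1.12) in NK-like cells to 1.25 (1.24 to 1.27) in alveolar macrophage-like cells. All lay above 1 and none reached 2-fold, against 4.13% of genes called in alveolar macrophage-like, 3.25% in nonclassical monocyte-like and 8.02% in NK-like cells.

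Fcer1g was low in lymphocytes that do not use the chain as a rule. B-like cells had 40.2 CPM under KO (118 UMIs) and 12.4 under WT (126 UMIs), a ratio of 3.25 (2.51 to 4.21) that was called higher. Fcgr3 was called higher there as well, on 14 and 21 UMIs, or 4.77 and 2.06 CPM, a ratio of 2.31 (1.09 to 4.77). In B-like cells, 2.53% of all genes were called. Endothelial-like cells, which should lack the gene, had Fcer1g at 45.1 (26.7 to 71.2) CPM under KO and 28.2 (25.2 to 31.5) under WT. Fcgr3 was at 2.50 (0.0634 to 13.9) and 4.99 (3.77 to 6.49) CPM in endothelial-like cells. The 7 classical monocyte markers summed to 771 and 818 CPM in B-like cells, a ratio of 0.943 (0.899 to 0.987). Of these, 4 of 7 were higher under KO and none was at 0. Vcan, at 8.17 against 0.294 CPM, and F13a1, at 7.49 against 0.981 CPM, were small beside that sum. Their part in the B-like values was not tested.

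**Figure D3:**
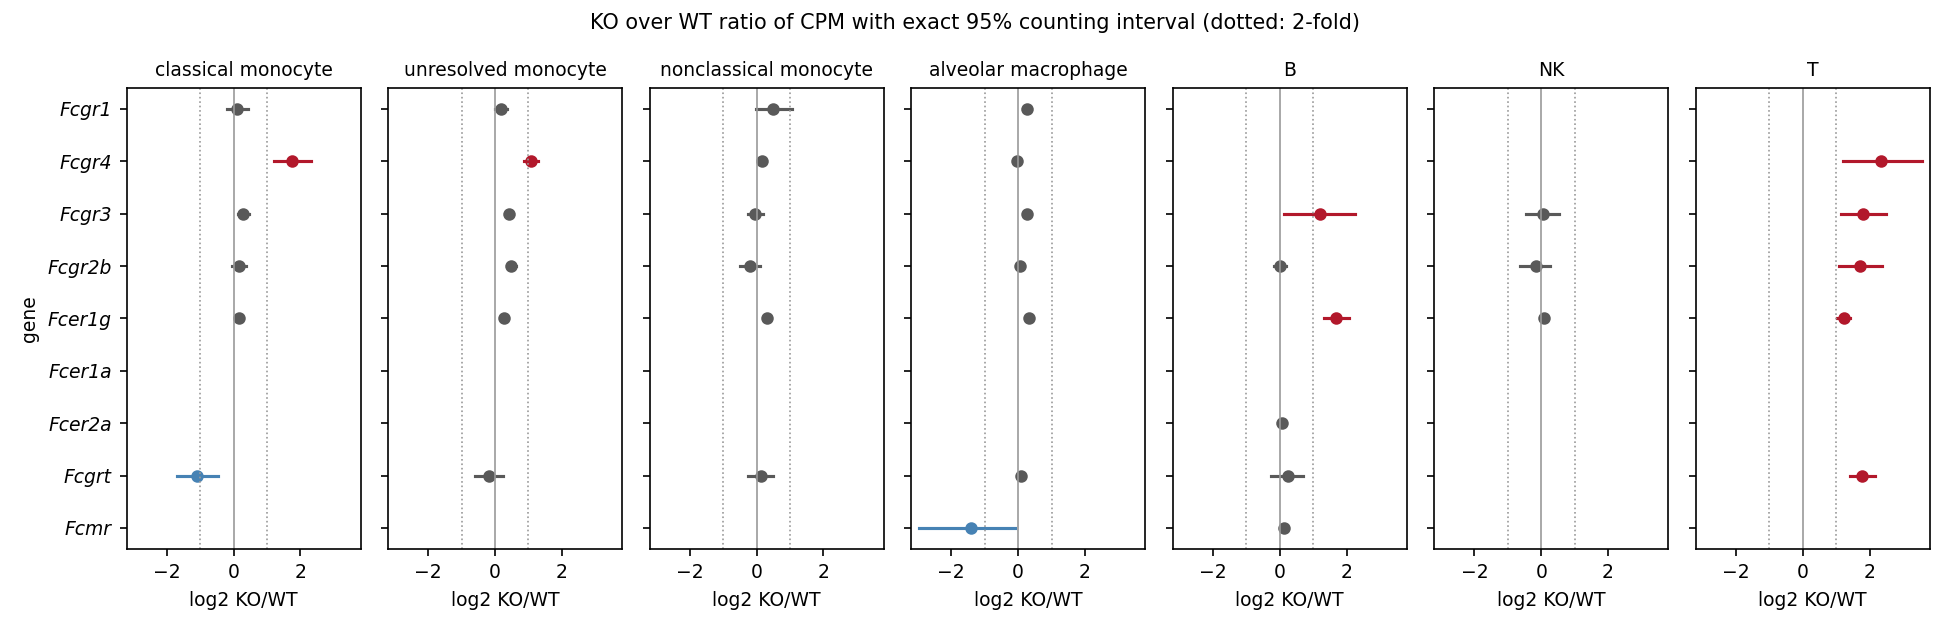
KO over WT ratio of CPM on a log2 axis for the 39 pairs with at least 30 UMIs, with exact 95% intervals. Red marks the 9 pairs called higher and blue the 2 called lower, and dotted lines mark 2-fold. Calls of higher levels cluster in T-like cells, and Fcgr4 is the gene called higher in 2 monocyte classes.

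T-like cells held all of the 5 comparable members at low levels, and all 5 were called higher under KO, where 9.35% of all genes were called in either direction. Fcer1g was at 105 and 44.9 CPM, a ratio of 2.34 (2.04 to 2.69). Fcgrt was at 35.2 and 10.2 CPM, a ratio of 3.45 (2.64 to 4.52). The direction of Fcer1g, Fcgr2b and Fcgr3 turned when classes were set from single cells, with log2 ratios of -0.43, -0.17 and -0.59, and that of Fcgr3 turned without Scrublet doublets (-0.27), where the Fcgr2b call was also lost. Fcgr3, Fcgr2b and Fcgr4 lay between 5.40 and 13.4 CPM under KO and between 1.06 and 4.05 CPM under WT, on 19 to 47 UMIs under KO and 11 to 42 under WT.

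The share of each cluster among T-like cells differed between the libraries. Cluster 9, led by Scart1, Cxcr6, Il17a and Trdc, held 491 of the 766 KO cells and 583 of the 2405 WT cells. Cluster 7 held 186 and 1061, and cluster 10 held 89 and 761. Within cluster 9, Fcer1g was at 141.0 CPM under KO and 140.9 under WT, a ratio of 1.00 (0.861 to 1.16). The pooled difference in Fcer1g was therefore not seen in the cluster with the most Fcer1g. It was present in cluster 7, at 26.4 and 9.41 CPM, and in cluster 10, at 57.5 and 14.8 CPM. Among T-like cells grouped by their own UMIs, those with Trdc and without Cd4 or Cd8 UMIs had the highest Fcer1g. It was at 315 CPM in 87 KO cells and 180.2 CPM in 90 WT cells, a ratio of 1.75 (1.32 to 2.33). In cells with Cd4 UMIs alone the Fcer1g ratio was 4.91 (3.005 to 8.02), on 35 KO and 37 WT UMIs. In cells with Cd8a or Cd8b1 UMIs and without Cd4 or Trdc UMIs it was 2.12 (1.48 to 3.03). The part of cluster shares in the pooled Fcer1g ratio was not tested.

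Markers of classical monocytes moved with the T-like result. All 7 were higher under KO in T-like cells, none was at 0, and their sum was 1196 against 447 CPM. By cluster, the sum was 1026 against 466 CPM in cluster 7, 1413 against 878 CPM in cluster 9 and 57.5 against 19.9 CPM in cluster 10. The 8 NK markers summed to 514 against 294 CPM in T-like cells, with 5 of 8 higher under KO and none at 0, and the ratio of their sums was 1.40 in cluster 7, 0.810 in cluster 9 and 1.73 in cluster 10. T cells are not known to express Vcan and F13a1. These were at 13.1 and 17.9 CPM under KO and at 0.385 and 0.482 CPM under WT. Both were small beside the sum of the classical monocyte list, in which Ly6c2 and Ccr2 are also genes of T cells. Granule genes summed to 5.12 and 0.578 CPM, with 4 of 8 at 0 in each library. Fcgr3, Fcgr2b and Fcgr4 in KO T-like cells stayed at 12.5, 13.4 and 5.40 CPM, where KO endothelial-like cells had 2.50, 12.5 and 2.50 CPM on 1 to 5 UMIs. The part of monocyte or NK RNA in the T-like values was not tested.

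Fcgrt in T-like cells had another distribution. It was at 62.5 CPM under KO (112 UMIs in 371 cells) and 16.1 under WT (84 UMIs in 1151 cells) in cells with Cd8a or Cd8b1 UMIs and without Cd4 or Trdc UMIs, a ratio of 3.88 (2.89 to 5.21). In cells with Cd4 UMIs alone it was at 2.37 and 4.11 CPM on 1 and 9 UMIs. Under KO, classical monocyte-like cells had Fcgrt at 16.0 CPM and alveolar macrophage-like cells had it at 260.1 CPM. The 8 alveolar macrophage markers summed to 149 against 116 CPM in T-like cells, with 1 of 8 higher under KO. They summed to 69.9 against 127 CPM in cluster 7, 190 against 104 CPM in cluster 9 and 60.7 against 108 CPM in cluster 10. The part of monocyte or macrophage RNA in the Fcgrt values was not tested. Within cluster 9 Fcgrt was at 42.4 and 8.94 CPM, a ratio of 4.75 (3.01 to 7.75). The T-like result for Fcgrt turned direction when each library was clustered on its own, with a log2 ratio of -1.45 in place of 1.79, and its call was lost in 5 of 15 alternatives.

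**Figure D4:**
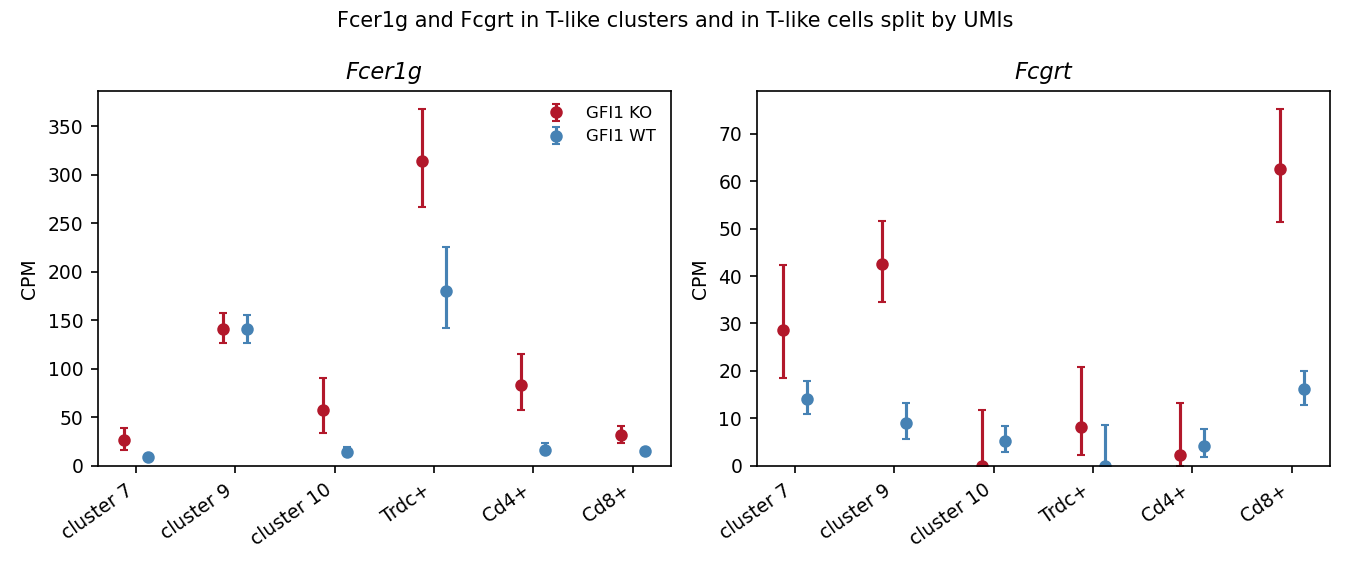
CPM of Fcer1g (left) and Fcgrt (right) in the 3 T-like clusters and in T-like cells split by Trdc, Cd4 or Cd8 UMIs, KO in red and WT in blue, with exact 95% Poisson intervals. Fcer1g is level between labels in cluster 9 and higher under KO in the other groups shown. Fcgrt under KO is highest in Cd8-positive cells.

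Fcgrt is known for its role in macrophages and endothelium, where FcRn recycles IgG. It was highest in alveolar macrophage-like cells among the 7 compared classes, at 260.1 and 247 CPM, a ratio of 1.05 (1.02 to 1.09). Under WT, fibroblast or mural cells reached 257 CPM with an interval that overlapped that of alveolar macrophage-like cells. Nonclassical monocyte-like cells had 61.0 and 55.8 CPM, endothelial-like cells 30.04 and 31.6 CPM and B-like cells 17.0 and 14.4 CPM. In classical monocyte-like cells Fcgrt was at 16.0 CPM under KO and 34.3 under WT (24 UMIs), a ratio of 0.465 (0.309 to 0.732) that was called lower. That call was lost in 9 of 15 alternatives, among cells with no granule UMI the ratio was 0.570 (0.325 to 1.08), and in the unresolved cluster it was 0.875 (0.663 to 1.17). B2m, the partner of FcRn, was at 1532 and 2166 CPM in classical monocyte-like cells, a ratio of 0.707 (0.672 to 0.745).

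Fcer1a was found almost wholly in basophil-like cells. Of its 76 UMIs under KO, 73 were in the 18 basophil-like cells, and of its 37 UMIs under WT, 35 were in the 15 basophil-like cells. The remaining 3 UMIs under KO came from 1 cell and the 2 under WT from 2 cells, all classed as alveolar macrophage-like. A single basophil-like cell had 0 to 11 Fcer1a UMIs under KO (median 3.5) and 0 to 12 under WT (median 1). The summed levels were 971 (761 to 1221) and 491 (342 to 683) CPM, a ratio of 1.98 (1.30 to 3.05) over fewer than 50 cells in each library. The signalling β chain gene Ms4a2 had 63 of its 76 KO UMIs and 24 of its 28 WT UMIs in the same cells, at 838 and 337 CPM.

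The same cells expressed the rest of the receptor. Fcer1g was at 2633 CPM under KO and 1571 under WT, a ratio of 1.68 (1.32 to 2.13). Fcgr3 was at 226 and 210.4 CPM on 17 and 15 UMIs and Fcgr2b at 146 and 126 CPM on 11 and 9 UMIs, while Fcgr1 and Fcgrt were at 0 in both libraries. The 8 basophil markers summed to 19360 and 12840 CPM, a ratio of 1.51 (1.39 to 1.64), with 6 of 8 higher under KO and Mcpt8 at 3444 against 547 CPM. Their part in the Fcer1a ratio was not tested. The 7 mast cell markers summed to 1011 and 1599 CPM. Cpa3, which is also on the basophil list, gave 75 of their 76 UMIs under KO and 93 of their 114 UMIs under WT. Of the rest, Mcpt4, Tpsb2, Tpsab1 and Mrgprb1 were at 0 in both libraries and Kit was at 0 under KO with 20 UMIs under WT.

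The FceRIa antibody tag, named for the same receptor, gave a second readout, on the surface. The tag names do not say which isotype control matches this antibody. Its median per basophil-like cell was 47.5 tag UMIs under KO (17 to 140) and 44 under WT (3 to 157), with 0.5 and 2 for the isotype control RTK2758. At least 30 tag UMIs that were also at least 5 times the isotype control were seen in 16 of 18 KO cells and 12 of 15 WT cells. Endothelial-like cells also had many tag UMIs, with medians of 27 and 16, but the isotype control rose with them to 23.5 and 13, and 0 cells passed both conditions. In nonclassical monocyte-like cells the median was 7 in both libraries, with 2 and 4 for the isotype control, and Fcer1a had 0 UMIs in their 394 and 362 cells. A tag counts antibody on the cell, so it does not separate expressed receptor from antibody held by other means.

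**Figure D5:**
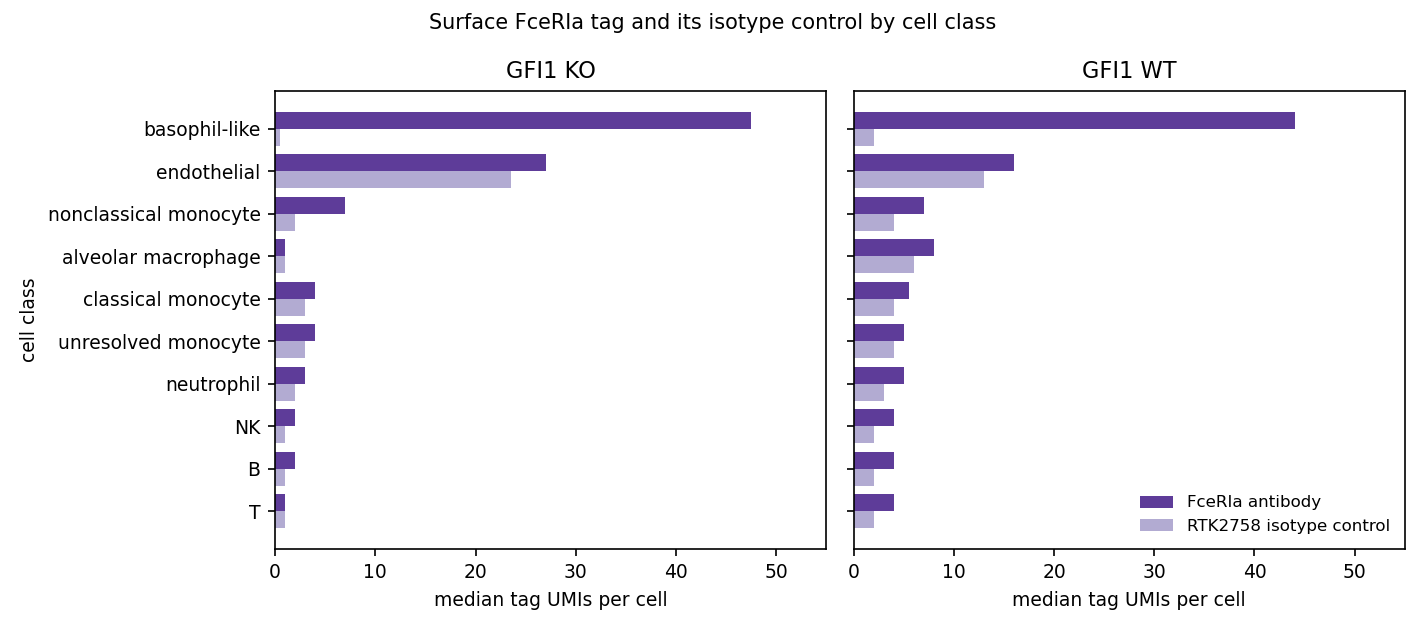
Median UMIs per cell of the FceRIa antibody tag (dark) and of the isotype control RTK2758 (light) in 10 cell classes, KO left and WT right. Basophil-like cells have 47.5 and 44 with an isotype control near 0, whereas endothelial-like cells carry both tags at near equal levels.

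Fcer2a, which encodes CD23, was at 324 CPM under KO and 309.9 under WT in B-like cells, a ratio of 1.04 (0.971 to 1.12), and B-like cells held 87.4% and 82.9% of its UMIs. Fcmr was at 654 and 595 CPM, a ratio of 1.10 (1.04 to 1.16). Neither was called. Outside B-like cells the largest Fcer2a level in a class of at least 50 cells was 7.07 CPM under KO (4 UMIs) and 7.28 CPM under WT (7 UMIs), in conventional and plasmacytoid dendritic cells respectively.

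B-like cells fell into clusters 2 and 13, which were formed without the Fc receptor genes, and the clusters had different Fcer2a shares in each library. Cluster 20, with 16 KO and 265 WT cells, had 8 of 8 B markers raised but was left unnamed and is not among the B-like cells. Unnamed clusters together held 12.4% of the Fcmr UMIs under KO and 23.4% under WT. In cells thinned to 1500 UMIs, Fcer2a was seen in 37.9% (34.5 to 41.5) of cluster 2 cells under KO and 36.4% (34.4 to 38.3) under WT, and in 10.7% (5.85 to 17.7) and 17.7% (14.4 to 21.3) of cluster 13 cells. Fcmr did not separate the clusters to that degree, at 57.3% and 54.1% in cluster 2 and 48.8% and 52.6% in cluster 13. Fcgr2b was seen in 13.8% to 15.7% of cells in all 4 sets. The share of Fcer2a-positive cells over both clusters was 34.3% (31.2 to 37.5) under KO and 33.1% (31.4 to 34.9) under WT, where 0 of 97 and 0 of 2124 thinned endothelial-like cells had an Fcer2a UMI, which allows up to 3.09% and 0.141%.

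In alveolar macrophage-like cells Fcmr was called lower on 6 UMIs under KO and 27 under WT, or 0.230 and 0.606 CPM, a ratio of 0.380 (0.128 to 0.939), and the call was kept in 11 of 13 alternatives. All 8 B cell markers were lower under KO in the same cells, none was at 0, and they summed to 5.49 against 13.3 CPM. Their part in the Fcmr value was not tested.

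Around the receptors, 42 other genes of Fc signalling, listed by role, gave 186 comparable pairs, of which 15 were called higher and 8 lower, where 2.78% and 2.93% of all pairs of a gene and a class were called. In the monocyte classes, 1 of 26 comparable genes was called in classical, 0 of 26 in unresolved and 0 of 23 in nonclassical monocyte-like cells, against 6.71%, 5.63% and 3.25% of all genes. The gene called was Dok1, an inhibitory adaptor, at 18.2 and 5.72 CPM in classical monocyte-like cells, on 4 UMIs under WT. The 6 kinases gave 40 pairs, 4 called higher and none lower. Syk, which binds the phosphorylated γ chain, was at 729 and 878 CPM in classical monocyte-like cells, and Lyn, which phosphorylates it, was at 2482 and 2821 CPM. The inhibitory phosphatase gene Ptpn6 was at 391 and 268 CPM there, a ratio of 1.46 (1.27 to 1.70), and Inpp5d, the phosphatase recruited by FcγRIIb, at 309 and 276 CPM.

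In T-like cells 10 of 26 comparable genes of this list were called higher and 1 lower, where 9.35% of all genes were called in either direction. The higher calls included Tyrobp (129 and 35.9 CPM), Fgr (15.9 and 5.69 CPM) and Syk (23.0 and 10.4 CPM), all better known from myeloid or NK cells. Ncr1, an NK receptor that pairs with the γ chain, was called lower there on 4 and 38 UMIs. Antibody genes, the ligands of these receptors, gave 15 comparable pairs, 3 called higher and 3 lower. Ighg1 had 30 UMIs in KO B-like cells and 0 in WT B-like cells. Ighg3 had 51 and 55 UMIs, a ratio of 3.22 (2.15 to 4.80). The number of cells that held these UMIs is not given here. Unnamed cluster 20 (16 KO and 265 WT cells), led by Igkc and with 4 of 7 plasma cell markers raised, is outside the B-like class. Ighe had 0 UMIs in all 7 classes of both libraries.

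The genes most like each member across 25 combinations of class and library were found by Pearson's r of log2(CPM + 1), given as a description since these points share libraries and depth. Fcer1g was most like Tyrobp (0.965), the gene of the other activating adaptor DAP12, and Nfil3 (0.938). Fcgr4 was most like Pilra (0.959) and Cd300ld (0.953), Fcgr1 like Msr1 (0.954), Fcgr3 like Msrb1 (0.939), and Fcgr2b, with a lower r, like Ctsc (0.843). Fcer2a and Fcmr were each other's closest gene (0.975). For Fcgrt the closest was Plin3 (0.841).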

How the data were processed

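Lung cells were processed by the authors with Cell Ranger 9.0.1 against GRCm39, and the deposited matrices hold whole UMI counts per gene, and per antibody tag, for each called cell. Cells with at least 500 UMIs, 200 genes and at most 20% mitochondrial UMIs were kept. The libraries were clustered together without batch correction (2000 variable genes, 50 components, 15 neighbours, Leiden resolution 0.8), with the Fc receptor and signalling genes withheld from the variable genes, and clusters were named from marker lists. Doublets marked by Scrublet were kept, and leaving them out was an alternative. Counts were summed per class and library, without ribosomal, mitochondrial and Gm genes. The limit given beside a count of 0 is 3 counts of the total. Intervals are exact (Poisson, conditional binomial or Clopper-Pearson), cover counting error only, and treat no cell as a replicate. The members, lists and rules were chosen with earlier results of these data known. The study states 2 samples per genotype, of which 1 each was analysed here. The scripts were tested on simulated data. Named genes were the 9 members, genes of the signalling list, and for each member with at least 100 UMIs the 3 genes with the highest Pearson correlation over classes, of which up to 2 are printed. None of the 91-base stretches from the last 500 bases of the members' coding transcripts (GENCODE M21) occurred in transcripts of another gene.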

Additional observations from a re-analysis of the deposited data

Results flagged for a closer look

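The KO over WT ratio of Fcgrt pointed in opposite directions in a pair of classes. It was 3.45 in T-like cells and 0.465 in classical monocyte-like cells, and the difference between the classes was not tested.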

How the results depend on the processing

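With 1 library per genotype, no setting gives a measure of the spread between animals. No paired analysis was possible because each group has 1 library. The count of Fc receptor pairs called higher (9) became 5 with a minimum of 100 UMIs and 3 without Scrublet doublets. It became 5 with 1000 UMIs and 10% mitochondrial UMIs, 3 when thinned to 1500 UMIs and 4 with classes from single cells. It rose to 10 with a minimum of 10 UMIs, 11 with each library clustered on its own and 12 with all named classes. The pairs compared fell from 39 to 32 without Scrublet doublets and rose to 52 with all named classes. These counts therefore do not share a base. The count called lower (2) became 1 with 100 UMIs, 1 at resolution 0.5, 0 at resolution 1.2, 1 with the Fc receptor genes allowed as variable genes, 1 without Scrublet doublets, 0 with the stricter cell filter, 0 when thinned and 1 with classical and unresolved monocytes together. The number of genes with the same leading class in both libraries (7) became 4 when thinned and 4 with classes from single cells. In T-like cells the log2 ratio turned negative with classes from single cells for Fcer1g (-0.43), Fcgr2b (-0.17) and Fcgr3 (-0.59), without Scrublet doublets for Fcgr3 (-0.27), and with each library clustered on its own for Fcgrt (-1.45). The cause was not tested. The Fcgr4 call in classical monocyte-like cells was kept in 10 of 15 alternatives, with log2 ratios from 0.91 to 2.03. That of Fcer1g in B-like cells was kept in 15 of 15, with log2 ratios from 1.15 to 5.49. The 5.49 came with each library clustered on its own, where Fcgr3 in B-like cells reached 5.14. Leaving out shared barcodes, joining the monocyte clusters and using all named classes were chosen after seeing the data.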
